A study of Mus musculus with 12 samples.

Results

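The genes described here are 10 feedback genes of the ERK pathway, the dual-specificity phosphatases Dusp1, Dusp4, Dusp5 and Dusp6, the Sprouty and SPRED inhibitors Spry1, Spry2, Spry4 and Spred1, and the ETS transcription factors Etv4 and Etv5. They were chosen by symbol from the 23282 gene symbols of the count tables, and all 10 were present. RNA came from C22 cells, a conditionally immortalised mouse club cell line cloned from a transgenic H-2Kb-tsA58 mouse, so each library comes from 1 clone that carries the large T antigen. Differentiated cells carried a negative control (NC) or siRNA against Pdcd5 (siPdcd5), and each was left untreated or given TGF-β1 at 20 ng/ml for 24 h after a short serum starvation. The untreated groups are called NC and siPdcd5 and the treated ones NC + TGF-β1 and siPdcd5 + TGF-β1, which makes 4 groups with 3 libraries each. QuantSeq 3′ mRNA-seq, which reads the 3′ ends of polyadenylated RNA, was run on all 12 libraries, and the comparisons ask how the feedback genes stand after TGF-β1 and after loss of Pdcd5.

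Receptor tyrosine kinases signal through RAS, RAF and MEK to the kinases ERK1 and ERK2, and active ERK induces genes whose products turn the pathway down again. The nuclear phosphatases DUSP1, DUSP4 and DUSP5 and the cytoplasmic DUSP6 remove phosphate from MAP kinases, Sprouty and SPRED proteins act upstream between the receptor and RAF, and ETV4 and ETV5 are transcription factors of the PEA3 group that rise with FGF signalling. In the developing lung this circuit restrains FGF signals during branching, and because transcripts such as Dusp6, Spry2, Spry4, Etv4 and Etv5 follow ERK activity they are widely read as its transcriptional output.

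Libraries held 12809857 to 17714828 counts, and 12425 genes passed the filter on low counts. CPM values are counts divided by library sizes scaled with TMM factors, and 3 counts, the limit that a count of 0 allows, correspond to 0.165 to 0.239 CPM, which covers counting error only because reads carried no molecular identifiers. Pdcd5, the targeted gene, stood at 73.5, 65.8 and 65.1 CPM in the NC libraries and at 21.2, 20.0 and 22.1 CPM in the siPdcd5 libraries, a log2 difference of -1.69 ± 0.0996 (SE), and in treated cells the difference was -1.49 ± 0.099. The club cell markers were not found at a usable level. Scgb3a2 and Cyp2f2 were at 0 in all libraries and Scgb1a1 had 1 count in 1 library, whereas Krt18 averaged 495 CPM and Col1a1 averaged 2719 CPM in NC cells. Of the library pairs within a group, those with NC + TGF-β1 replicate 2 and those with siPdcd5 replicate 1 differed most, with a chi-square per degree of freedom of 35 and 62.7 for the former against 12.1 for its 2 fellow libraries, and of 34.6 and 26.8 for the latter against 10.2. Where a call given for a named gene was lost without either library, the value without it is given too. For the 10 members this also holds where a call was gained. Neither the labels nor the methods say that libraries of a group came from separate cultures, so p-values measure the spread between these libraries, and since RNA came from whole cultures, fewer expressing cells and less RNA per cell cannot be told apart.

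The upstream sequences of 4 of the members are shown because their RNA was lower in the TGF-β1 contrast averaged over NC and siPdcd5 cells. That contrast was added after the data had been seen. Each is the stretch of 250 bases before the RefSeq transcript start on GRCm38.p6, written 5′ to 3′ on the gene's strand. Capitals mark the ETS core GGAA, read on either strand, so that it also appears as TTCC, and the cAMP response element TGACGTCA, which reads the same on both strands.
Dusp1, chr17:26508473-26508722, minus strand: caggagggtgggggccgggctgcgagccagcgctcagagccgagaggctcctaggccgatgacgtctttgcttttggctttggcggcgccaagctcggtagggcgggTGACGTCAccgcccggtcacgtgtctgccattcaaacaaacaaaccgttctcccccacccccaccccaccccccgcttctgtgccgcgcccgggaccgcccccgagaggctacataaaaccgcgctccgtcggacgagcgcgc
Dusp6, chr10:99262981-99263230, plus strand: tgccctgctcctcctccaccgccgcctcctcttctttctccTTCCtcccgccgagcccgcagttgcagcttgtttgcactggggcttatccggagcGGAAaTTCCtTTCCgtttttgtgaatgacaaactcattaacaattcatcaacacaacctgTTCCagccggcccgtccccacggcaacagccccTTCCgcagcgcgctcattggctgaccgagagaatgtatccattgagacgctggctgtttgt
Spry1, chr3:37639697-37639946, plus strand: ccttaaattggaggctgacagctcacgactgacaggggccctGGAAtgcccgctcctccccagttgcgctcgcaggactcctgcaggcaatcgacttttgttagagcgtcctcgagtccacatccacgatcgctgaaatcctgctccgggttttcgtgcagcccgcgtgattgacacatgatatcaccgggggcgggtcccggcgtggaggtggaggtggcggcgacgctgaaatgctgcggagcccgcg
Spry2, chr14:105896820-105897069, minus strand: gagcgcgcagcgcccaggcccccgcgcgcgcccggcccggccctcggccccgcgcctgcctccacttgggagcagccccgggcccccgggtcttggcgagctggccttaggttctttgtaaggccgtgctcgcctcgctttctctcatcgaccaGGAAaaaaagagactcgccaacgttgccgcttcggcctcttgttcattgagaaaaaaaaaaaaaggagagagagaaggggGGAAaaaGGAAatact
The Dusp1 window held 1 cAMP response element, which starts 143 bases before the transcript start, and no ETS core. The Dusp6 window held 6 ETS cores, the Spry1 window 1 and the Spry2 window 3. Of 32841 RefSeq promoter windows of the same length, 1.55% held TGACGTCA and 93.5% held at least 1 GGAA on either strand, with a median of 3, so an ETS core is present in nearly every window. The Spred1 window, which is not printed, held 4 ETS cores and the windows at the alternative starts of Etv5 held 0 and 4. The AP-1 element TGANTCA was in none of the windows matched to members and is in 6.75% of all windows. The SMAD element CAGACA was in 1 of them, that of Dusp1, against 17.1% of all windows, and the GC box GGGCGG was in those of Dusp1, Dusp5, Spry1, Spred1 and Etv5, against 32.7%. None of these matches was tested for binding. Entries were matched for 7 of the 10 members.

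The tested feedback genes were called lower or did not pass the test after TGF-β1, and none was called higher. In NC cells 4 of the 8 members that passed the filter were lower (Spry1, Spry2, Dusp1 and Spred1) and 0 were higher, by edgeR's quasi-likelihood test at a Benjamini-Hochberg adjusted p under 0.05 over all genes tested. Over all 12425 genes 15.3% were called, 6.77% as lower and 8.57% as higher. In siPdcd5 cells 2 of the 8, Dusp1 and Dusp6, were lower and 0 were higher, where 16.1% of all genes were called, 7.61% as lower and 8.5% as higher. The median log2 fold change of the 8 members was -0.47 in NC cells and -0.20 in siPdcd5 cells, against 0.0050 and -0.026 over all genes. When the TGF-β1 effect was averaged over NC and siPdcd5 cells, a contrast of 6 libraries against 6 that was added after the data had been seen, 4 of the 8 (Dusp1, Dusp6, Spry1 and Spry2) were lower and 0 were higher, against 27.2% of all genes called, 13% as lower and 14.2% as higher. The members that passed the filter do not stand for all 10, since Dusp5 and Spry4 were too low to test. Spry1 and Etv4 passed the filter's cutoff of 0.754 CPM in only 5 and 4 of the 12 libraries, those of the groups where they were high, so their place among the genes tested already depended on a difference between groups. Of the 6 members past the cutoff in all 12 libraries, 3 were lower in NC cells (Dusp1, Spry2 and Spred1) and 2 in siPdcd5 cells, 0 were higher, and the medians were again -0.47 and -0.20.

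**Figure D1:**
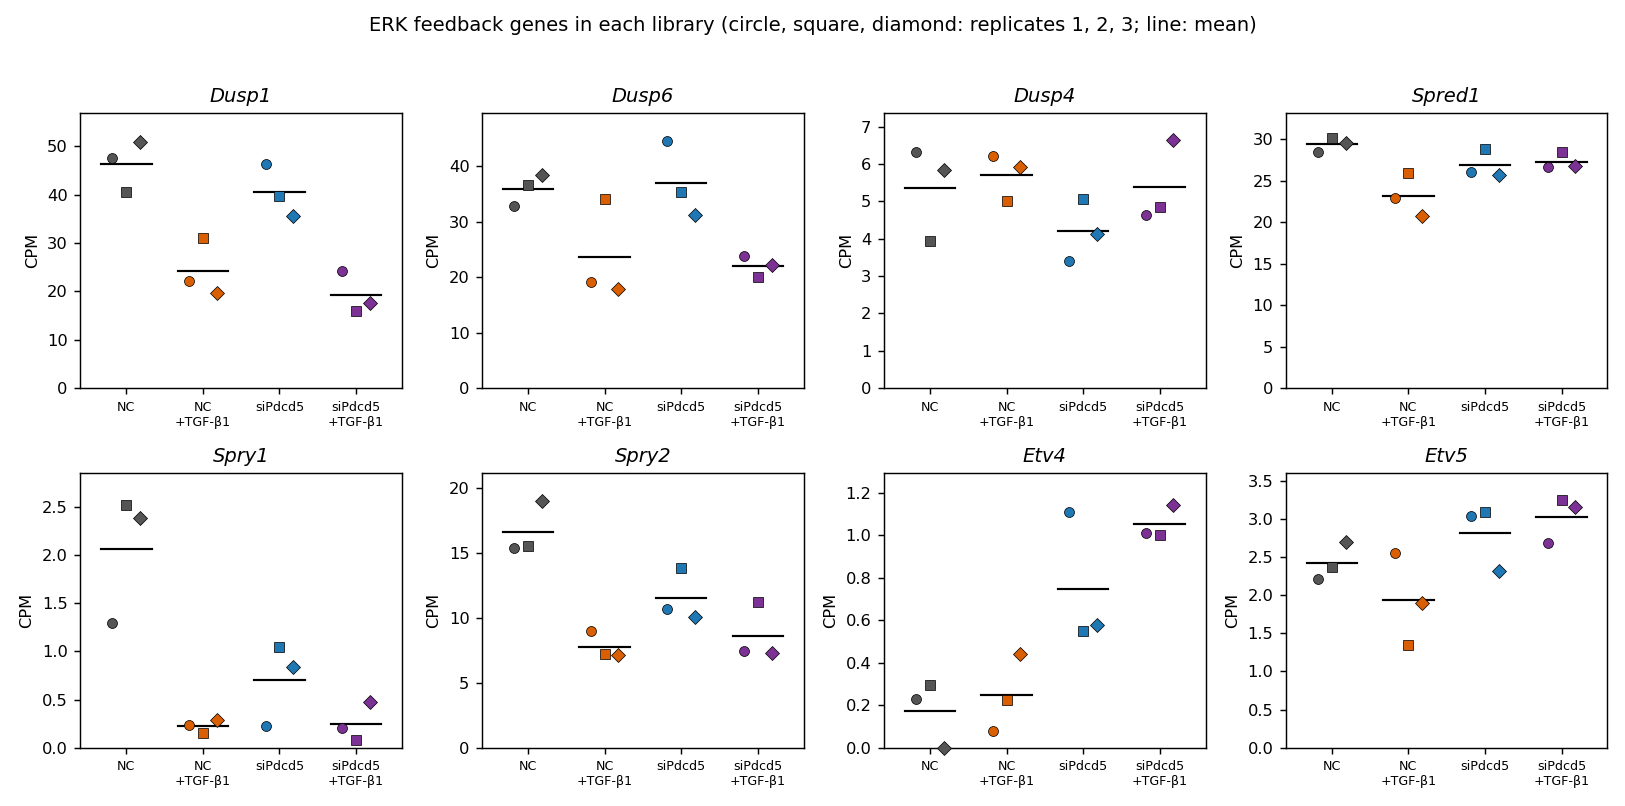
CPM (linear axes from 0) of the 8 tested feedback genes in each of the 12 libraries, by group, with symbols for replicates 1, 2 and 3 and a line at the group mean. Dusp1 is lower in all 6 libraries given TGF-β1 than in all 6 without it, Dusp6 shows the same except for NC + TGF-β1 replicate 2 at 34.1 CPM, and Etv4 is higher in all 6 siPdcd5 libraries than in all 6 NC libraries.

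Among the phosphatases, Dusp1 gave the clearest difference. Dusp1 (also MKP-1), an immediate-early phosphatase that acts on p38 and JNK as well as ERK, lies at chr17:26505590-26562128 on the minus strand. It stood at 47.6, 40.6 and 50.9 CPM in NC, at 22.1, 31.1 and 19.7 CPM in NC + TGF-β1, at 46.4, 39.7 and 35.7 CPM in siPdcd5 and at 24.2, 16.0 and 17.6 CPM in siPdcd5 + TGF-β1. The treated and untreated libraries did not overlap in either cell state. The log2 fold change was -0.93 ± 0.183 (SE) in NC cells, which is 1.91-fold lower (adjusted p = 0.00252), and -1.07 ± 0.185 in siPdcd5 cells, 2.10-fold lower (adjusted p = 0.000898). These calls held under all 19 alternatives in each cell state. Within each treatment the NC and siPdcd5 libraries overlapped. Its annotated span overlaps Ergic1 and the processed pseudogene Gm8225 on the opposite strand. On the same strand it overlaps another processed pseudogene and a sense-intronic transcript. This span is from GENCODE and reaches upstream of the RefSeq start used for the promoter window, which lies inside it. Strand use in the counting is not given in the sources used here.

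Dusp6 (MKP-3), the ERK-selective cytoplasmic phosphatase, lies at chr10:99263231-99267489 on the plus strand. It stood at 32.8, 36.6 and 38.4 CPM in NC and at 19.2, 34.1 and 17.8 CPM in NC + TGF-β1. Replicate 2 of the treated group lay inside the NC range while its fellow libraries lay far below. The log2 fold change of -0.60 ± 0.206 did not pass the test (adjusted p = 0.0668), and without that replicate it was -0.96 (adjusted p = 0.000159). It was called in 5 of 19 alternatives, among them also the fit without siPdcd5 replicate 1 (-0.61, adjusted p = 0.0463). In siPdcd5 cells Dusp6 stood at 44.5, 35.3 and 31.1 CPM untreated and 23.8, 20.1 and 22.2 CPM treated. These libraries did not overlap, and the log2 fold change was -0.74 ± 0.205, 1.67-fold lower (adjusted p = 0.0229). That call was kept in 15 of 19 alternatives and lost, among others, without siPdcd5 replicate 1 (log2 fold change -0.59, adjusted p = 0.0889). Averaged over both cell states, the log2 fold change was -0.67 ± 0.146 (adjusted p = 0.00305), and it was called in all 18 alternatives.

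The libraries that set Dusp6 apart did the same for Gab1, the docking protein that couples receptors to the RAS pathway. Gab1 stood at 26.3, 50.2 and 22.4 CPM in NC + TGF-β1 and at 63.9, 53.0 and 48.5 CPM in siPdcd5, so that replicate 2 of the former and replicate 1 of the latter were highest, as for Dusp6. Over the 12 libraries Gab1 had the highest Pearson correlation with Dusp6 of 9127 genes compared, at 0.979, as a description of libraries that share treatment groups and depth. In NC + TGF-β1, replicate 2 was the highest of the 3 libraries for 3 of the 8 tested members, Dusp1, Dusp6 and Spred1, and the lowest for 3. The latter, Dusp4, Spry1 and Etv5, had at most 81 counts in these libraries, against at least 241 for the former. The order of the libraries is therefore less certain for them.

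Dusp4 (MKP-2), a nuclear phosphatase for ERK and JNK at chr8:34807297-34819894 on the plus strand, stood at 6.31, 3.93 and 5.83 CPM in NC and 6.21, 5.01 and 5.92 CPM in NC + TGF-β1. It stood at 3.4, 5.07 and 4.12 CPM in siPdcd5 and 4.63, 4.86 and 6.65 CPM in siPdcd5 + TGF-β1. All 4 groups overlapped. The log2 fold change after TGF-β1 was 0.093 in NC cells (95% interval -0.40 to 0.59) and 0.35 in siPdcd5 cells (-0.15 to 0.85), so a fall of the size seen for Dusp1 lies outside both intervals. Dusp5, a nuclear ERK phosphatase at chr19:53529109-53542431 on the plus strand, had 4 counts in siPdcd5 replicate 3 and 0 in the other libraries, and at this depth no difference could be detected.

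Spry1 RNA was close to the detection limit in treated cells. Spry1, an inhibitor of receptor tyrosine kinase signalling at chr3:37639947-37644598 on the plus strand, had 17, 34 and 31 counts in NC and 3, 2 and 4 counts in NC + TGF-β1, which is 1.29, 2.52 and 2.38 CPM against 0.239, 0.149 and 0.292 CPM. The groups did not overlap, and the treated libraries were near the level of 3 counts. The gene passed the filter's cutoff in the 3 NC libraries and 2 of the siPdcd5 libraries and in 0 of the 6 treated ones, so its test is not independent of the filter and is given as a description. The fitted log2 fold change was -3.14 ± 0.615 (adjusted p = 0.0022), and the ratio of the summed counts was 9.10-fold, with a 95% counting interval of 4.57 to 20.6. In siPdcd5 cells Spry1 had 3, 19 and 13 counts untreated and 3, 1 and 7 counts treated. Those groups overlapped, and the log2 fold change of -1.47 ± 0.66 did not pass the test (adjusted p = 0.147). It was not called in any of the 17 alternatives that could test it, in which it ranged from -2.27 to -1.0 with adjusted p values from 0.0548 (without siPdcd5 replicate 1, at -1.84) to 0.399 (without siPdcd5 replicate 2).

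Spry2, the widely expressed Sprouty that restrains FGF and EGF signals, lies at chr14:105891947-105896819 on the minus strand. It stood at 15.4, 15.5 and 19.0 CPM in NC and at 9.0, 7.18 and 7.16 CPM in NC + TGF-β1, with no overlap. The log2 fold change was -1.09 ± 0.194, 2.13-fold lower (adjusted p = 0.00111), and was called in all 19 alternatives. In siPdcd5 cells it stood at 10.7, 13.8 and 10.1 CPM untreated and 7.45, 11.2 and 7.26 CPM treated, where replicate 2 of the treated group lay inside the untreated range. The log2 fold change of -0.43 ± 0.193 did not pass the test (adjusted p = 0.156). Over 19 alternatives it ranged from -0.65 to -0.27 and was called in 1, the fit without that replicate (adjusted p = 0.0417), and the highest adjusted p was 0.433, without siPdcd5 replicate 2.

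Spred1, a membrane-bound inhibitor that brings neurofibromin to RAS, lies at chr2:117121374-117182279 on the plus strand. It stood at 28.5, 30.2 and 29.6 CPM in NC and at 22.9, 25.9 and 20.8 CPM in NC + TGF-β1. The libraries did not overlap and the log2 fold change was -0.34 ± 0.106, 1.27-fold lower (adjusted p = 0.0401), but the call was kept in only 8 of 19 alternatives, with adjusted p values from 0.0116 to 0.153. In siPdcd5 cells it stood at 26.1, 28.8 and 25.7 CPM untreated and 26.6, 28.5 and 26.8 CPM treated, and the log2 fold change was 0.022 (95% interval -0.20 to 0.25). Averaged over both cell states, Spred1 changed by -0.161 ± 0.0744 and was not called (adjusted p = 0.127). Without NC + TGF-β1 replicate 2 the averaged value was called (-0.205, adjusted p = 0.0428). Spry4, another Sprouty inhibitor, had 1 count in NC replicate 2, 2 counts in siPdcd5 replicate 2 and 0 in the other libraries, so no difference could be detected.

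Etv5, at chr16:22381309-22439719 on the minus strand, did not pass the test after TGF-β1. It stood at 2.21, 2.37 and 2.69 CPM in NC, 2.55, 1.35 and 1.90 CPM in NC + TGF-β1, 3.03, 3.09 and 2.32 CPM in siPdcd5 and 2.68, 3.24 and 3.16 CPM in siPdcd5 + TGF-β1. The log2 fold changes were -0.33 (95% interval -0.91 to 0.26) in NC cells and 0.10 (-0.43 to 0.64) in siPdcd5 cells. Etv4, at chr11:101769742-101785371 on the minus strand, gave 0.49 (-1.36 to 2.35) and 0.52 (-0.58 to 1.61), intervals too wide to set a direction. The PEA3 factors were thus not called lower in the comparisons in which Dusp1, Dusp6, Spry1 or Spry2 were, and whether the genes differ from each other was not tested.

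**Figure D2:**
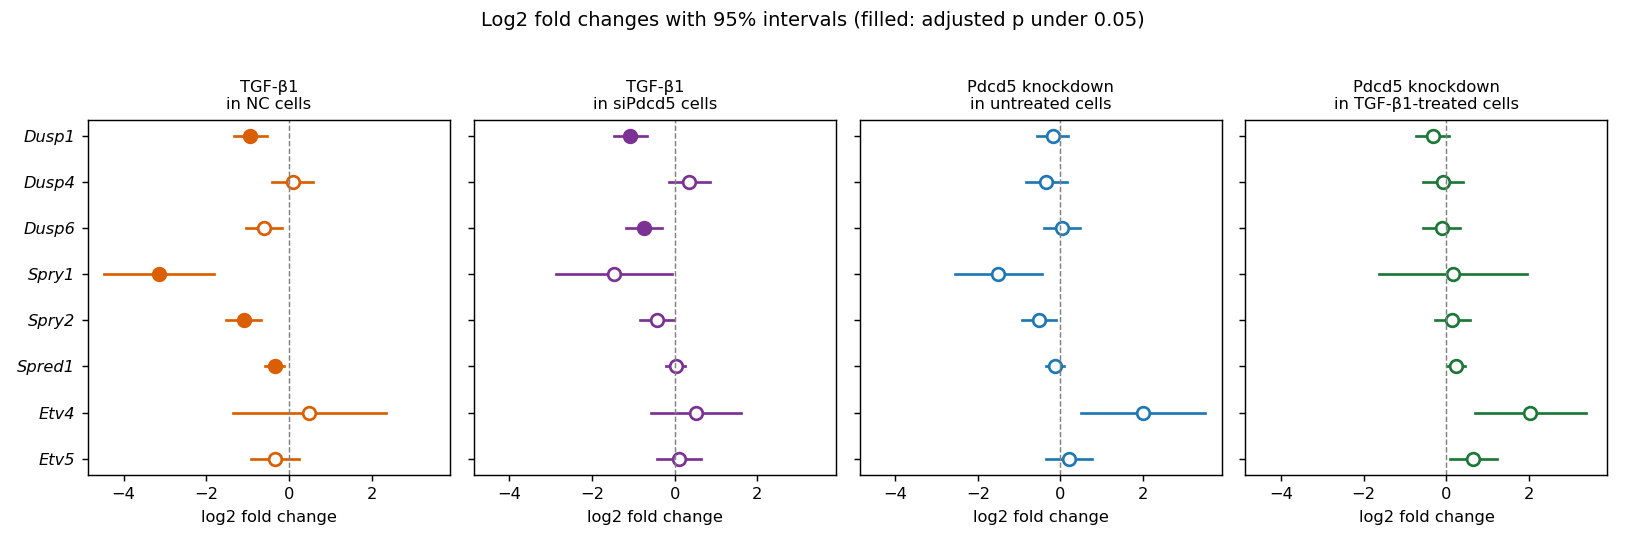
Log2 fold changes (horizontal axes) of the 8 tested feedback genes in 4 comparisons, with lines for the 95% intervals of edgeR's quasi-likelihood fit and filled points for adjusted p under 0.05. Dusp1 is filled in both TGF-β1 comparisons (-0.93 and -1.07), and no gene is filled in the knockdown comparisons, where Etv4 lies at 2.00 and 2.03.

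Loss of Pdcd5 called none of the members when its 3 libraries were compared with 3. Of the 8 tested, 0 were called in untreated cells, where 3.44% of all genes were (0.901% as higher and 2.54% as lower), and 0 in TGF-β1-treated cells, where 1.55% of all genes were (0.33% as higher and 1.22% as lower). At an unadjusted p under 0.05, 3 members passed in untreated cells (Etv4, Spry1 and Spry2), where 15.7% of all genes did, and 3 in treated cells (Etv4, Etv5 and Spred1), where 13.8% did. DESeq2 called 0 members in either. When the knockdown effect was averaged over untreated and treated cells, a contrast of 6 libraries against 6 that was also added after the data had been seen, 1 of the 8 was higher and 0 were lower, against 7.7% of all genes called, 2.58% as higher and 5.13% as lower. That gene was Etv4, which, like Spry1, entered the test through the groups where it was high. Of the 6 members past the filter's cutoff in all 12 libraries, 0 were called in this contrast or in either knockdown comparison.

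Etv4 had 3, 4 and 0 counts in NC, 1, 3 and 6 in NC + TGF-β1, 15, 10 and 9 in siPdcd5 and 15, 13 and 17 in siPdcd5 + TGF-β1. In CPM these were 0.228, 0.297 and 0, then 0.0796, 0.224 and 0.439, then 1.11, 0.551 and 0.579, and then 1.01, 1.00 and 1.14. All 6 siPdcd5 libraries lay above all 6 NC libraries, although the NC values were near the level of 3 counts. Etv4 passed the filter's cutoff in 4 libraries, 1 of siPdcd5 and 3 of siPdcd5 + TGF-β1, and in 0 of the NC libraries, so it entered the test through the groups where it is high, and the fitted values that follow are given as a description and not as support. The log2 fold change was 2.00 ± 0.701 in untreated cells (adjusted p = 0.149) and 2.03 ± 0.626 in treated cells (adjusted p = 0.133), neither of which passed. The averaged value was 2.01 ± 0.469 (adjusted p = 0.0152). It was called in all 17 alternatives that could test it, with adjusted p values from 0.00184 to 0.0435, and a minimum of 10 counts in every library removes the gene. The ratio of summed counts was 4.08 in untreated cells (95% counting interval 1.78 to 10.9) and 4.17 in treated cells (2.07 to 9.28).

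The other members moved less with the knockdown. Etv5, the other PEA3 factor among the members, was higher in all 3 siPdcd5 + TGF-β1 libraries than in the NC + TGF-β1 libraries. However, its log2 fold change of 0.65 ± 0.266 did not pass (adjusted p = 0.289), nor did the averaged 0.43 ± 0.185 (adjusted p = 0.188). In untreated cells Spry1 and Spry2 were lower in all 3 siPdcd5 libraries than in NC, at -1.50 ± 0.492 (adjusted p = 0.127) and -0.52 ± 0.187 (adjusted p = 0.173). In treated cells their values were 0.17 ± 0.838 and 0.15 ± 0.199 and the libraries overlapped. Spred1 was -0.13 in untreated cells and 0.24 ± 0.106 in treated cells, where all 3 siPdcd5 libraries lay above NC (adjusted p = 0.342). The log2 fold changes of Dusp1, Dusp4 and Dusp6 lay between -0.34 and 0.039, with overlapping libraries.

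The difference between the TGF-β1 effects in siPdcd5 and NC cells was tested as an interaction. In this test 0% of all genes were called and 0 of the 8 members, with edgeR's quasi-likelihood test, while 638 genes (5.13%) and 2 members, Spry2 and Spred1, had an unadjusted p under 0.05. DESeq2 called 15 genes and 0 members. The interaction was 0.67 for Spry2 (95% interval 0.081 to 1.25, adjusted p = 0.951) and 0.37 for Spred1 (0.049 to 0.69, adjusted p = 0.951), each the fold change in siPdcd5 cells less that in NC cells. For Dusp1 it was -0.14 (-0.70 to 0.41) and for Dusp6 -0.14 (-0.77 to 0.48). A fall called in 1 cell state and not in the other, as for Spry1, Spry2, Spred1 and Dusp6, was thus not shown to differ between them.

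The order of the group means followed treatment for some members and knockdown for others. Dusp1 ranked NC, siPdcd5, NC + TGF-β1 and siPdcd5 + TGF-β1 from high to low, and only the step from siPdcd5 to NC + TGF-β1 separated neighbouring groups without overlap. For Spry1 and Spry2 the order was NC first, siPdcd5 second, siPdcd5 + TGF-β1 next and NC + TGF-β1 last, and only NC stood clear of its neighbour. For Spred1 NC stood clear of siPdcd5 + TGF-β1, which came next. Etv4 ranked siPdcd5 + TGF-β1, siPdcd5, NC + TGF-β1 and NC, and only the step between siPdcd5 and NC + TGF-β1 had no overlap. Neighbouring groups overlapped throughout for Dusp4, Dusp6 and Etv5.

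Other genes of the pathway were called in both directions after TGF-β1. Over the other lists together, 19 of 63 tested genes were called in NC cells (30.2%, against 15.3% of all genes), 8 as higher and 11 as lower. In siPdcd5 cells 15 of 63 were called (23.8%, against 16.1%), 5 as higher and 10 as lower. Whether these shares differ from the background was not tested. Among the other MAP kinase phosphatases, Sprouty and SPRED genes and PEA3 factors, 1 of 7 tested was higher in NC cells, Dusp8, a phosphatase that favours JNK and p38, and 0 were lower. Dusp8 stood at 8.29, 10.8 and 12.2 CPM in NC and at 20.5, 18.5 and 21.2 CPM in NC + TGF-β1 (log2 fold change 0.94 ± 0.143, adjusted p = 0.000306), and in siPdcd5 cells it changed by 0.87 ± 0.141 (adjusted p = 0.000555). It thus rose in both cell states while Dusp1 fell in both. In siPdcd5 cells 2 of 7 were higher, Dusp8 and Dusp9, another MAP kinase phosphatase, which is named after its values were seen, and 0 were lower. Dusp9 had 3, 10 and 6 counts untreated and 13, 29 and 17 treated (log2 fold change 1.80 ± 0.536, adjusted p = 0.0324, kept in 14 of 18 alternatives), and without siPdcd5 replicate 1 it was not called (1.56, adjusted p = 0.0995). Its untreated siPdcd5 values, 0.221, 0.551 and 0.386 CPM, lay below the filter's cutoff of 0.754 CPM. The treated values, 0.872, 2.24 and 1.14 CPM, lay above it, so the test is given as a description.

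Of 20 tested genes of the ERK cascade core, 3 were higher and 3 lower in NC cells, and 2 were higher and 3 lower in siPdcd5 cells. The adaptor genes Gab1 (-0.77 ± 0.228, adjusted p = 0.0342) and Shc1 (-0.53 ± 0.088, adjusted p = 0.000632) and Mapk3, which encodes ERK1 (-0.49 ± 0.0916, adjusted p = 0.00175), were lower in NC cells. Rasa1, a RAS GTPase-activating protein, was higher (0.51 ± 0.152, adjusted p = 0.036), though in only 9 of 19 alternatives. In siPdcd5 cells Gab1, Shc1 and Mapk3 were the 3 lower genes, at -0.84, -0.44 and -0.53. The Gab1 call was kept in 14 of 19 alternatives in NC cells, where its log2 fold change ranged from -1.21 (without NC + TGF-β1 replicate 2) to -0.54, and in 16 of 19 in siPdcd5 cells, where it was lost without siPdcd5 replicate 1 (-0.72, adjusted p = 0.0656).

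Among EGF and FGF family ligands and receptors, with Met, 2 of 12 tested were higher and 2 lower in NC cells, and 1 was higher and 2 lower in siPdcd5 cells. Fgfr1, an FGF receptor, rose by 0.88 ± 0.135 and Hbegf, an EGF receptor ligand, by 0.73 ± 0.162 on the log2 scale in NC cells. Met, the hepatocyte growth factor receptor, was lower by a log2 fold change of -1.14 ± 0.0833 and Egfr by -0.45 ± 0.0912. In siPdcd5 cells Hbegf rose by 0.58 and Met and Egfr changed by -1.18 and -0.39. The Hbegf call in siPdcd5 cells was kept in 14 of 19 alternatives and lost without siPdcd5 replicate 1 (0.48, adjusted p = 0.0796). Whether these ligand and receptor differences relate to those of the feedback genes was not tested.

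Of 11 ERK output genes, 1 was higher and 3 lower in NC cells and 0 were higher and 3 lower in siPdcd5 cells. Ccnd1, which encodes cyclin D1, changed by -1.26 ± 0.103 in NC cells and by -1.19 ± 0.103 in siPdcd5 cells, Mcl1, an anti-apoptotic gene, by -0.41 and -0.41, and Epha4, an ephrin receptor, by -0.35 and -0.37. Ier2, an immediate-early gene, was higher in NC cells (0.66 ± 0.199, adjusted p = 0.0365), in 10 of 19 alternatives, and was not called without NC + TGF-β1 replicate 2 (0.40, adjusted p = 0.15). Of 13 genes of the p38 and JNK pathway, which Dusp1 also dampens, 1 was higher and 3 lower in NC cells and 0 were higher and 2 lower in siPdcd5 cells. Map3k5, which encodes the stress kinase ASK1, changed by -1.71 ± 0.134 and Map2k6, a p38 activator, by -1.43 ± 0.318 in NC cells. Map2k3, the other main p38 activator, was at -0.41 ± 0.13 (8 of 19 alternatives) and Mapk9, which encodes JNK2, at 0.48 ± 0.142 (11 of 19). Without NC + TGF-β1 replicate 2 the Mapk9 call was lost (0.31, adjusted p = 0.0861). In siPdcd5 cells Map2k3 was at -0.53 and was not called without siPdcd5 replicate 1 (-0.41, adjusted p = 0.0558).

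**Figure D3:**
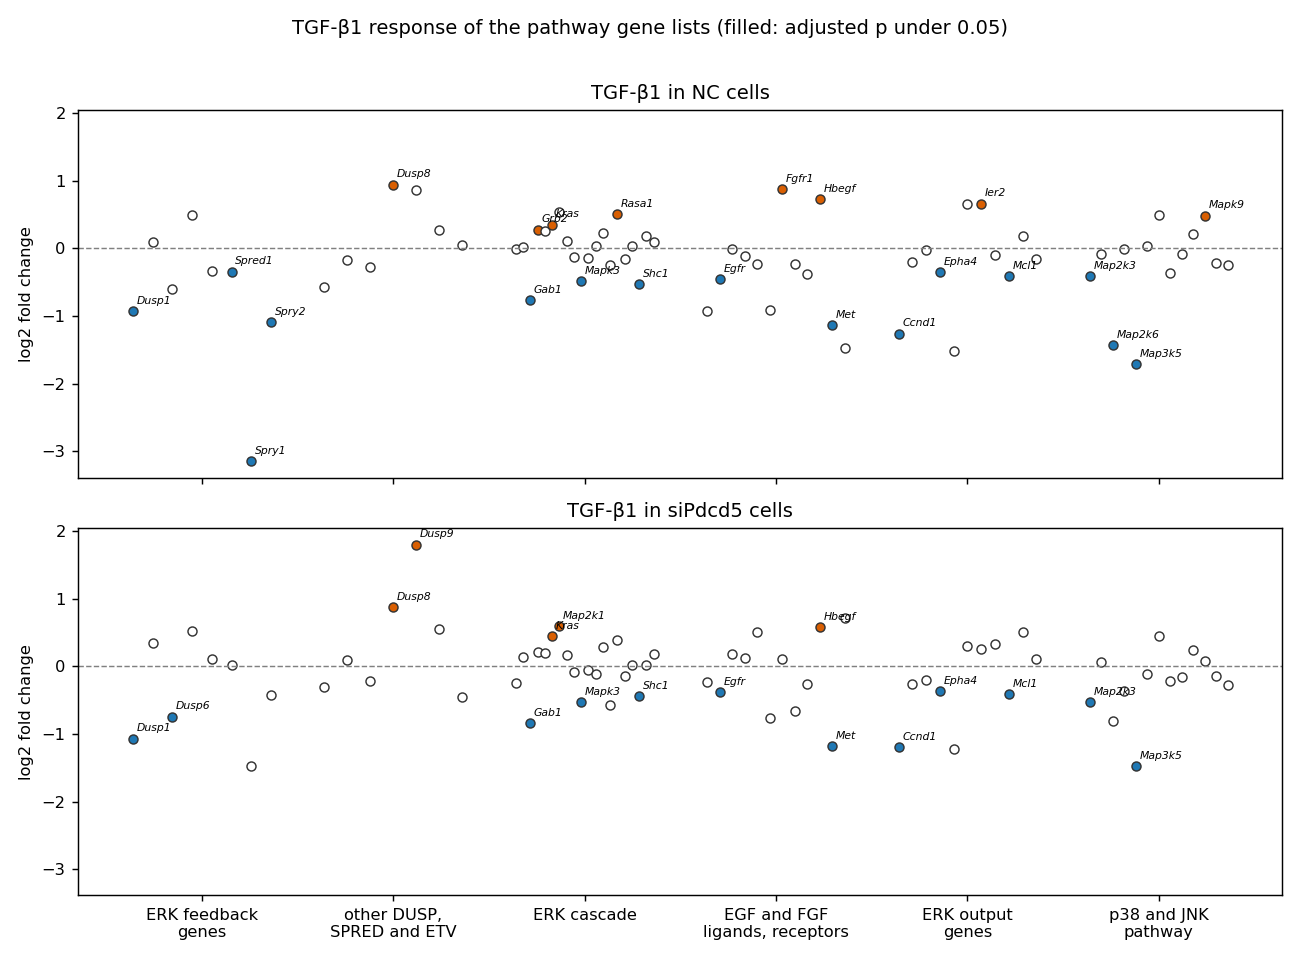
Log2 fold change after TGF-β1 (vertical axes) of each tested gene of 6 lists, in NC cells above and siPdcd5 cells below, 1 point a gene in alphabetical order within its list. Filled points have an adjusted p under 0.05, orange for higher and blue for lower, and of the 8 feedback genes 4 are blue in NC cells and 2 in siPdcd5 cells, with none orange.

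Markers of other cell types were set beside these TGF-β1 differences. The 5 fibroblast markers, of which Col1a1 makes up nearly all of the sum, summed to 2660 to 2820 CPM in NC and 5946 to 6592 CPM in NC + TGF-β1, and to 1741 to 2180 CPM in siPdcd5 and 4511 to 4700 CPM in siPdcd5 + TGF-β1. From NC to NC + TGF-β1 the means of 4 of the 5 were higher, with Pdgfrb at 15.2 and 30.1 CPM, Col1a2 at 3.58 and 24.7 CPM and Thy1 at 0.10 and 0.48 CPM, and that of Pdgfra was lower, at 5.90 and 4.61 CPM. In siPdcd5 cells Pdgfrb averaged 19.7 and 27.3 CPM and Col1a2 12 and 39.5 CPM without and with TGF-β1. There the means of Pdgfra, at 5.41 and 3.8 CPM, and of Thy1, at 0.332 and 0.266 CPM, were lower with it. The 5 epithelial markers summed to 674 to 697 CPM and 1240 to 1677 CPM in NC cells without and with TGF-β1, and to 547 to 699 and 1582 to 1645 CPM in siPdcd5 cells, nearly all from Krt8 and Krt18, while Epcam and Krt19 stayed near 0. The mean of Cdh1 was lower with TGF-β1, at 3.18 and 2.12 CPM in NC cells and 2.37 and 2.18 CPM in siPdcd5 cells. The ciliated marker Tppp3 averaged 5.07 and 9.81 CPM in NC cells and 7.02 and 8.90 CPM in siPdcd5 cells without and with TGF-β1, while Foxj1 was near 0. The immune marker Cd68 averaged 8.14 to 9.35 CPM over the 4 groups with Ptprc near 0, and the summed endothelial and AT2 markers reached at most 0.386 and 0.877 CPM. The part of these shifts in the feedback gene results was not tested.

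After knockdown, 2 of 63 tested genes of the other pathway lists were called in untreated cells (3.17%, against 3.44% of all genes) and 1 of 63 in treated cells (1.59%, against 1.55%), shares close to the background. In untreated cells 1 of 12 ligand and receptor genes was higher, Fgfr1, and 1 lower, Egfr, and in treated cells Egfr was lower and 0 were higher. Egfr, which encodes the EGF receptor, stood at 54.7, 57.9 and 56.4 CPM in NC and 37.1, 39.5 and 37.0 CPM in siPdcd5 (log2 fold change -0.57 ± 0.0911, adjusted p = 0.00271). In treated cells it stood at 37.7, 43.8 and 42.0 CPM in NC and 29.9, 27.5 and 29.5 CPM in siPdcd5 (-0.51 ± 0.0927, adjusted p = 0.0128). The groups did not overlap in either treatment. The first call was kept in 19 of 19 alternatives and the second in 16.

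Fgfr1 stood at 22.6, 28.6 and 26.4 CPM in NC and 55.6, 43.8 and 46.0 CPM in siPdcd5, without overlap (log2 fold change 0.90 ± 0.134, adjusted p = 0.00193). In treated cells the groups overlapped, at 45.9, 54.1 and 42.8 CPM and 50.5, 47.7 and 58.9 CPM, and the value was 0.14 ± 0.131 (adjusted p = 0.715). The interaction for Fgfr1 was -0.77 (adjusted p = 0.736). In the other 4 lists, that is other MAP kinase phosphatases, the cascade core, output genes and the p38 and JNK pathway, 0 of 51 tested genes were called in either knockdown comparison by edgeR's quasi-likelihood test. At an unadjusted p under 0.05, 7 passed in untreated cells, where 15.7% of all genes did, and 5 in treated cells, where 13.8% did, and DESeq2 called 2 in untreated cells, Rps6ka1 and Mapk9, and 0 in treated cells.

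In the contrast averaged over treatment, 7 of the 63 list genes were called (11.1%, against 7.7% of all genes), Rps6ka1 and Fgfr1 as higher and Egfr, Hbegf, Met, Ccnd1 and Egr1 as lower. The call was kept in only 6 of 18 alternatives for Ccnd1 and 7 of 18 for Hbegf. Without siPdcd5 replicate 1 Hbegf was not called (-0.35, adjusted p = 0.0792). Of the 7 genes, Rps6ka1 and Egr1 separated all 6 siPdcd5 from all 6 NC libraries, and are described because their values were seen. Egr1, an immediate-early gene induced by ERK, stood at 8.36, 5.19 and 6.30 CPM in NC and 5.41, 4.48 and 7.31 CPM in NC + TGF-β1. It stood at 4.13, 4.47 and 3.15 CPM in siPdcd5 and 2.95, 3.63 and 3.23 CPM in siPdcd5 + TGF-β1 (log2 fold change -0.78 ± 0.171, adjusted p = 0.0118), and the nearest libraries of the 2 sets, at 4.48 and 4.47 CPM, barely separated. Rps6ka1, which encodes the ERK-activated kinase RSK1, differed by 0.58 ± 0.12 (adjusted p = 0.00913). Its nearest libraries were also close, at 9.29 CPM in NC replicate 3 and 9.72 CPM in siPdcd5 + TGF-β1 replicate 2. The share of all genes that separate the 2 sets in this way was not counted.

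**Figure D4:**
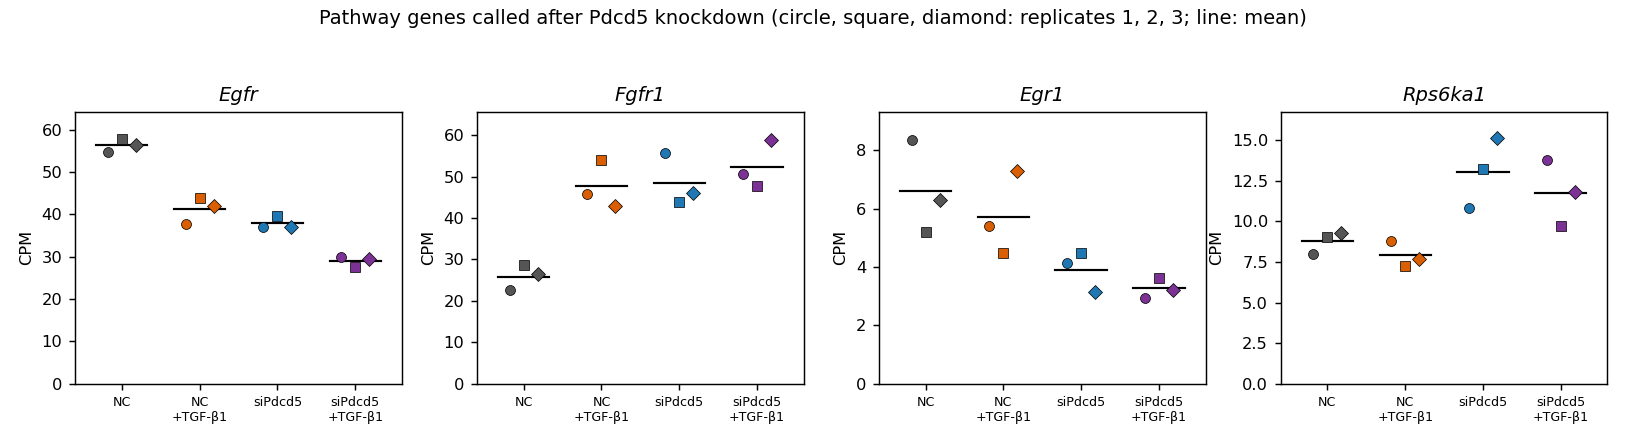
CPM (linear axes from 0) in each of the 12 libraries, by group, with a line at the group mean, for the pathway genes Egfr, Fgfr1, Egr1 and Rps6ka1. Egfr is lower in siPdcd5 than in NC within each treatment, and Fgfr1 averages 25.8 CPM in NC against 47.6 to 52.4 CPM in the other groups. Egr1 and Rps6ka1 narrowly separate the 6 siPdcd5 from the 6 NC libraries.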

How the data were processed

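RNA of 12 C22 libraries in 4 groups of 3 was measured by QuantSeq 3′ mRNA-seq, single-end. The authors aligned the reads with Bowtie2, used Bedtools to count alignments, multiple ones included, and deposited raw counts per gene symbol. Reads of near-identical sequences can therefore be counted more than once. The submitters' processing notes name mm10. The annotation and the use of strand are not given in the sources used here. The quantile normalization in the study's methods is not in the deposited counts.

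Counts were analysed with R 4.3.3 and edgeR 4.0.16, with the default filter on low counts, TMM scaling and a quasi-likelihood fit of all 12 libraries with 4 groups (square root of the common dispersion 0.132). Comparisons were contrasts of this fit, and a gene was called where its p after Benjamini-Hochberg adjustment was under 0.05. All p-values come from this two-sided test unless DESeq2 1.42.0 or limma 3.58.1 is named. Intervals are at 95%, and ratios of summed counts have exact conditional intervals. The code was tested on simulated data.

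The text names all 10 members. From each other pathway list it names at most 4 genes, those with the largest absolute log2 fold change among those called after TGF-β1 in NC cells, and genes called in a knockdown comparison or the interaction. Other names were chosen after their values were seen. Likeness was ranked by Pearson correlation of log2 CPM (prior count 2, genes with a mean of at least 3). Members and lists were chosen with earlier results of these data known.

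The alternatives tried were a replicate block, each library left out in turn, a fit of only the 6 libraries compared, DESeq2's Wald test, upper-quartile factors, limma-trend on quantile-normalized values, no filter, and a minimum of 10 counts in each library. The contrasts averaged over cell state or treatment were added after the data had been seen. Gene positions are from GENCODE on GRCm38 and promoters from RefSeq on GRCm38.p6.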

Additional observations from a re-analysis of the deposited data

How the results depend on the processing

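Calls of the members kept their direction. Of 1022 values of single members under an alternative, 974 stayed on their side of the threshold, 7 gained a call, 15 lost one and 26 changed sign, none of which was called. With 1 library left out, the log2 fold change after TGF-β1 ranged from -0.0901 to 0.226 for Dusp4 and from -0.178 to 1.07 for Etv4 in NC cells, and from -0.00901 to 0.0761 for Spred1 and -0.0157 to 0.185 for Etv5 in siPdcd5 cells, where upper-quartile factors gave -0.00829 for Spred1. After knockdown it ranged from -0.117 to 0.148 for Dusp6 in untreated cells, and in treated cells from -0.266 to 0.0161 for Dusp4, -0.278 to 0.254 for Dusp6, -0.635 to 0.547 for Spry1 and -0.0786 to 0.263 for Spry2. The averaged knockdown value of Dusp6 ranged from -0.119 to 0.146, and interactions from -0.341 to 0.0774 for Dusp1, -0.319 to 0.217 for Dusp6 and -0.559 to 0.698 for Etv4.

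The count of members called after TGF-β1 in siPdcd5 cells was 1 to 2 with 1 library left out, since Dusp6 was lost, and the averaged knockdown count was 0 with at least 10 counts in every library, which leaves Etv4 untested. Over all genes, knockdown in untreated cells gave 427 calls, 714 with DESeq2 and 167 to 667 with 1 library left out. In treated cells it gave 192, with 459 by DESeq2, 44 with only the 6 libraries compared and 73 to 322 with 1 library left out. The highest of these left-out values, 667 and 322, came without NC + TGF-β1 replicate 2, and the lowest without NC replicate 2 (167) and siPdcd5 + TGF-β1 replicate 3 (73). The averaged knockdown gave 957, and 608 to 1319 with 1 library left out. The interaction gave 0 with edgeR's quasi-likelihood test, 15 with DESeq2 and 0 to 2 with 1 library left out. The causes of these differences were not tested.

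No source used here ties libraries of the same number to a shared culture, and the data do not show a pairing. The correlation of deviations between same-numbered libraries averaged 0.113 for NC without and with TGF-β1, 0.00213 for siPdcd5 without and with it, 0.023 between the untreated and -0.14 between the treated groups, and in no comparison did every pair pass 0.1, although 2 of the 3 pairs of NC without and with TGF-β1 did, at 0.166 each. The numbers were therefore not used as a pairing. With the replicate block, 4 and 2 members were called after TGF-β1 in NC and siPdcd5 cells. For knockdown in untreated and treated cells and for the interaction, 0, 0 and 0 were called. Over all genes, the calls in the same order were 1687, 1731, 301, 107 and 0, against 1906, 2002, 427, 192 and 0 without the block. For knockdown in treated cells, 106 of the 107 were shared. Spry1, Etv4, Dusp5 and Spry4 are limited by depth, and 3 libraries a group limit all tests.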

Other observations

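For each tested member, the gene whose log2 CPM followed it most closely over the 12 libraries was taken from 9127 or 9128 others. These correlations are descriptions, since the libraries share 4 groups and the same scaling. Dusp1 was nearest to Cdkn1b, which encodes the cell cycle inhibitor p27 (Pearson r = 0.974), and Epdr1 (0.972). After Gab1, Dusp6 was nearest to Npepps (0.97), a cytosolic aminopeptidase. Spry1 was nearest to Smc4 (0.95), a condensin subunit, and Tmem206 (0.948), Spry2 to Zkscan8 (0.933) and Mapre2 (0.921), and Spred1 to Kdm1b (0.903), a histone demethylase, and Ulk2 (0.868). Etv4 was nearest to Evi5 (0.92) and Rpusd3 (0.897), Etv5 to Mcm10 (0.91), a DNA replication factor, and Ints7 (0.866), and Dusp4 to Hiatl1 (0.854) and Hnrnpul2 (0.846). No member was among the 2 genes nearest to another member.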
